A study of Arabidopsis thaliana with 75 samples.

Results

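Leaves labelled gpat4 gpat8 were compared with wild-type (WT) leaves of Arabidopsis thaliana collected 4h after a cut with a blade. The comparison held 3 libraries titled gpat4 gpat8 4h and 3 titled WT 4h, chosen by those titles, which made 6 of the 75 libraries of the study. All came from the 8th leaf of plants that were 4 weeks old, and every leaf was wounded with a size 10 blade. The study followed such leaves over time after wounding in WT, in the line labelled gpat4 gpat8 and in a line labelled rbohE, with 3 libraries in each group. The labels give the genotypes without alleles, growth conditions or the time of day. They also do not say whether replicates came from separate plants, so the p-values here measure the spread between these libraries. As a second reference at the same time, 3 libraries labelled rbohE 4h were used. The 2h, 2D and 3D libraries of WT and of the line labelled gpat4 gpat8 served to ask which differences recurred. Unwounded leaves were not analysed here at 4h. The hours since the cut and the hour of the day therefore cannot be told apart.

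GPAT4 and GPAT8 encode glycerol-3-phosphate acyltransferases of the endoplasmic reticulum that attach omega-oxidised fatty acids to glycerol and so make precursors of cutin. Cutin is the polyester of the cuticle, the layer that, together with waxes, seals the leaf epidermis against water loss. Plants that lack both enzymes are known to have a permeable leaf cuticle and altered stomatal ledges. RBOHE encodes an NADPH oxidase that produces extracellular reactive oxygen species.

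Total counts ran from 46045188 to 65071409 in the leaves labelled gpat4 gpat8 and from 61531974 to 64794437 in WT. The number of genes with a count was 22476 to 22964 in the libraries labelled gpat4 gpat8 and 23255 to 23387 in those of WT, with no overlap. Plastid-encoded genes took 0.434% to 0.699% of the counts in the leaves labelled gpat4 gpat8 and 0.293% to 0.359% in WT. Mitochondrial genes took 0.0165% to 0.0248% against 0.0292% to 0.0339%. The TMM scaling factors, which correct for the make-up of each library, were 0.8696 to 0.8801 against 0.9836 to 1.023. The part of these library differences in the results was not tested. The summed level of 6 root and flower markers was 0.689 to 1.52 CPM, the counts scaled to equal effective library size, in the leaves labelled gpat4 gpat8 and 1.27 to 1.69 CPM in WT, with 2 and 3 of these genes at the detection floor. The 29 photosynthesis genes that mark green leaf were above the floor in both groups. In bulk RNA, fewer cells of a type and less RNA per cell cannot be told apart.

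GPAT4 (AT1G01610) was measured at 87.5, 71.7 and 69.8 CPM in the leaves labelled gpat4 gpat8 and at 203, 178 and 176 CPM in WT. Its transcript was lower in all 3 libraries but still present, with a log2 fold change of -1.28 ± 0.10 (SE) and an adjusted p of 4.19e-16 in edgeR's quasi-likelihood test. GPAT8 (AT4G00400) stood at 22.0, 23.0 and 19.9 CPM against 8.94, 10.5 and 11.6 CPM in WT, and so was higher, not lower, in the leaves that carry its name (log2 fold change 1.06 ± 0.28, edgeR adjusted p 0.00128). This call was lost with RLE size factors (0.99), with DESeq2 (0.99), and without gpat4 gpat8 4h replicate 1 (0.98), gpat4 gpat8 4h replicate 2 (0.96) or WT 4h replicate 1 (0.91). At 4h the level of GPAT8 therefore goes against the label and that of GPAT4 goes with it. GPAT4 was 1 of 3 genes called lower at 4h among 10 tested of the GPAT family (7.39% of all genes were). At 2D none of the 10 was called lower (0.264% of all genes were), and their lowest log2 fold change was -0.37. The leaves are named below by their label. A transcript can be made from a disrupted gene, and the labels do not say where either gene is disrupted, so these levels do not show whether an enzyme is made. The GPAT4 and GPAT8 transcripts are 83.0% identical over 78.4% of GPAT4. Of the 5 genes on either side of GPAT4, CYP86A4 and the aquaporin gene PIP1;3 were called higher, and MPK11, FRO2 and FRO1 were called lower. Around GPAT8 the phosphate transporter gene ANTR2 was called higher, which was lost with DESeq2 and without gpat4 gpat8 4h replicate 2 or WT 4h replicate 1.

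Of 23475 genes tested in 1 fit over all 75 libraries, 4505 (19.2%) were called between the leaves labelled gpat4 gpat8 and WT at 4h. A gene was called when its adjusted p was under 0.05 and its level differed at least 2-fold, that is, by 1 on the log2 scale. A total of 2770 genes (11.8%) were higher and 1735 (7.39%) were lower in the leaves labelled gpat4 gpat8. Replicates of the groups did not overlap for 4307 of the called genes, and they did not overlap for 61.7% of all genes tested. The difference exceeded 8-fold, or 3 on the log2 scale, for 521 higher and 257 lower genes. By the adjusted p alone, without the fold minimum, 52.4% of all genes passed. The median log2 fold change over all genes tested was 0.00. By the same rule 3376 genes (14.4%) were called against rbohE 4h, while 513 (2.19%) were called between rbohE 4h and WT 4h, and 45.8% and 9.29% passed by the adjusted p alone. These comparisons share libraries, so their values are given side by side and are not independent.

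**Figure D1:**
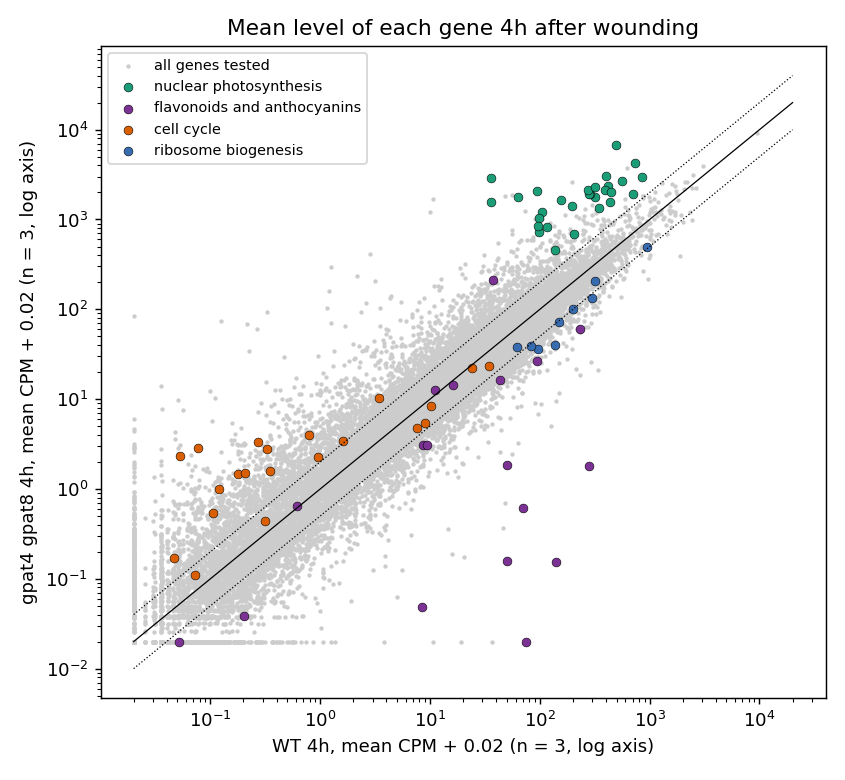
Mean level of every gene tested in the leaves labelled gpat4 gpat8 (vertical axis) against WT (horizontal axis) 4h after wounding, in CPM with 0.02 added, on log axes; colours mark 4 gene lists and each point is the mean of 3 libraries. The 29 photosynthesis genes lie above the diagonal and most flavonoid and anthocyanin genes lie below it.

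The genes that make anthocyanins, the red and purple flavonoid pigments that leaves accumulate under stress, were lower in the leaves labelled gpat4 gpat8, and the late ones stood at or near 0. Of 18 flavonoid and anthocyanin genes tested, 13 were called lower and 1 higher, with a median log2 fold change of -2.51, which becomes -1.72 when members at the floor take their bound. Of all genes, 7.39% were called lower. DFR (AT5G42800), the dihydroflavonol reductase that opens the anthocyanin branch, was at 0.35, 0 and 0.0544 CPM against 105, 185 and 135 CPM in WT. The 2 groups did not overlap, and the log2 fold change was -10.26 ± 0.86 (edgeR adjusted p 7.79e-15). LDOX (AT4G22880), which acts next in the pathway, had no count in any of the 3 libraries labelled gpat4 gpat8 and stood at 48.7, 101 and 75.5 CPM in WT. It was at least 472-fold lower, against the floor of 3 fragments in each library. The anthocyanin xylosyltransferase gene UF3GT stood at 0.05, 0.0524 and 0.308 CPM against 35.2, 65.4 and 50.9 CPM (log2 fold change -8.44 ± 0.67, edgeR adjusted p 1.02e-15). The acyltransferase gene AT5MAT (AT3G29590), outside the list, was at least 121-fold lower, and TT19 (AT5G17220), a glutathione transferase needed for anthocyanin transport to the vacuole, fell by 6.97 on the log2 scale. NUDT24 (AT5G19470), a Nudix hydrolase gene outside this list, was at least 230.0-fold lower.

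The early steps of the pathway differed by smaller amounts. TT4, the chalcone synthase that every flavonoid passes through, had a log2 fold change of -1.92 ± 0.39, F3H of -1.50 and TT7 of -4.78. TT5 (-0.20) and FLS1 (0.19), the flavonol synthase that draws on the same precursors, were not called. Among regulators, the MYB activator PAP2 (AT1G66390) stood at 3.47, 0.821 and 1.07 CPM against 289, 322 and 234 CPM in WT, a log2 fold change of -7.37 ± 0.43 (edgeR adjusted p 1.01e-20). PAP1, its close relative, was at 26.6 ± 10.6 CPM against 93.9 ± 7.56 CPM (SD, n = 3; log2 fold change -1.82). The bHLH partner TT8 (AT4G09820) was at least 52.5-fold lower. MYBL2 (AT1G71030), an R3-MYB repressor of this pathway, was the 1 member called higher, at 201, 215 and 221 CPM against 39.6, 40.5 and 32.6 CPM (log2 fold change 2.5 ± 0.22, edgeR adjusted p 2.29e-14). TT19 overlaps a gene on the other strand, and the use of strand in counting is not given in the sources used here.

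In the leaves labelled rbohE, 12 of the 18 genes were also called lower against WT (0.613% of all genes were), with a median log2 fold change of -2.51. DFR stood at 3.58, 15.5 and 7.12 CPM there, between the other groups. Against those leaves, 7 of the 18 were called lower in the leaves labelled gpat4 gpat8 (5.24% of all genes were), among them DFR at -6.24, PAP2 at -4.89 and TT8 at -5.36. TT4 (0.65), F3H (0.64) and PAP1 (0.32) were not called between the lines.

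The bases before the start of DFR and UF3GT are shown because both genes fell and both carry the G-box, CACGTG, the element bound by bHLH and bZIP factors. Capitals mark each match, read on both strands, in the 250 bases before the annotated start in the RefSeq annotation of TAIR10.1, at chr5:17166033-17166282 for DFR and chr5:21938397-21938646 for UF3GT, both on the minus strand.
DFR: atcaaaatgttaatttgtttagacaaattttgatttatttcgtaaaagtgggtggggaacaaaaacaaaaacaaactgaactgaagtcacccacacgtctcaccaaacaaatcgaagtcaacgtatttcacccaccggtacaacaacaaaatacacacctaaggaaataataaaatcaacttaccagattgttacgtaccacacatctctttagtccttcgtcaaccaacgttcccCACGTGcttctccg
UF3GT: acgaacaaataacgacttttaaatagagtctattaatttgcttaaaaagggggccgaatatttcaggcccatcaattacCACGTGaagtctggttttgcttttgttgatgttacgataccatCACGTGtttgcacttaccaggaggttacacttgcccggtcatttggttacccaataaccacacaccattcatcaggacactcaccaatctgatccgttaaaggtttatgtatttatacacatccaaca
The G-box was present in 7 of 18 promoters of this list (38.9%), in 1627 of 23280 promoters of the genes tested (6.99%), in 7.53% of those of genes called higher and in 8.23% of those of genes called lower. It was also in 7 of 21 clock promoters (33.3%) and in 2 of 9 ribosome biogenesis promoters (22.2%). The match is a description of these letters and no evidence of binding.

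**Figure D2:**
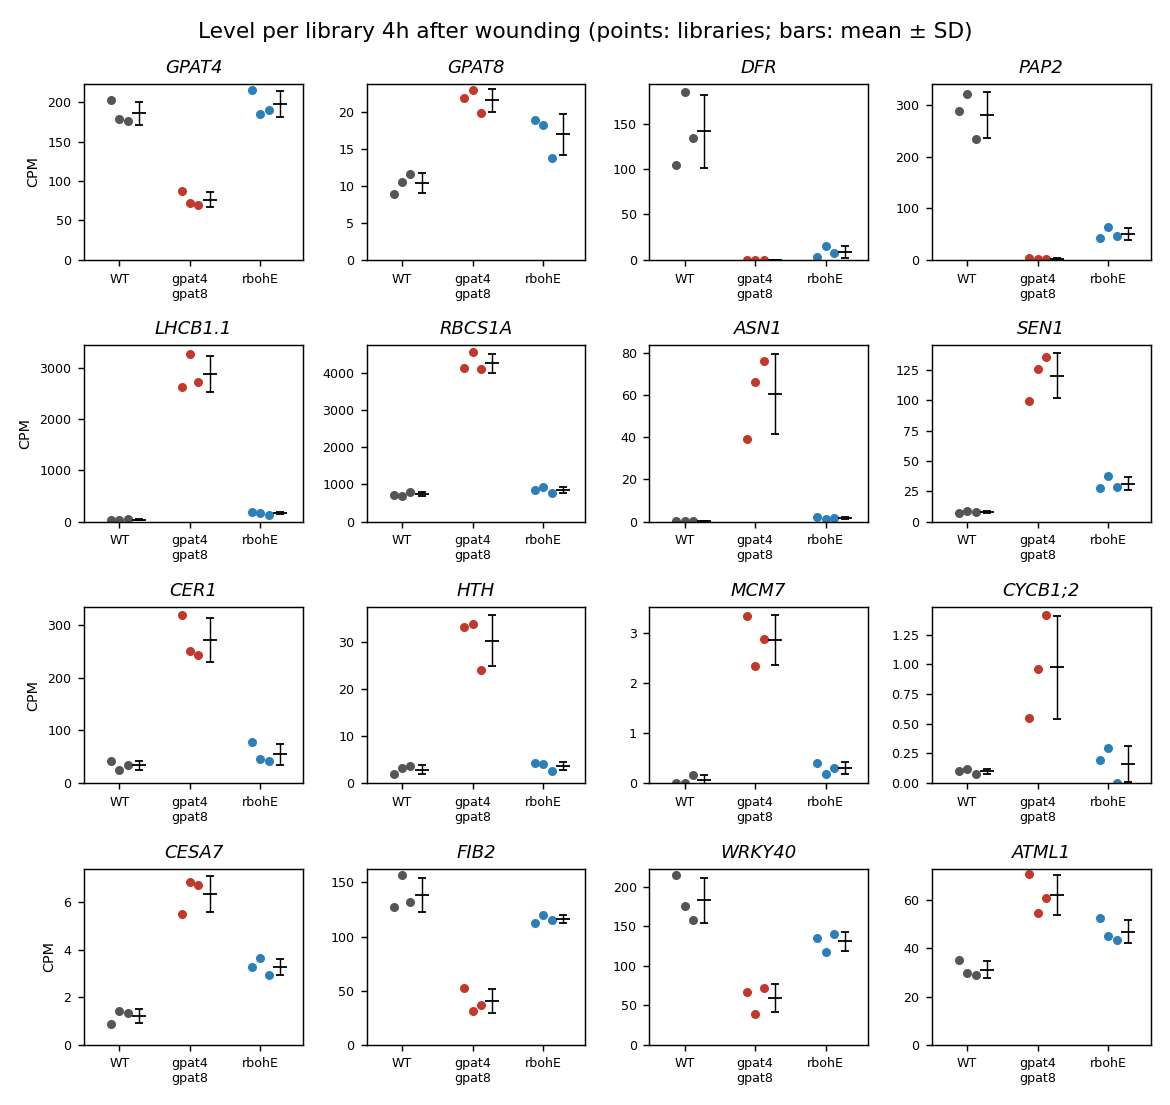
Level of 16 named genes in each of the 3 libraries labelled gpat4 gpat8, WT and rbohE at 4h, in CPM on linear axes. There is 1 point per library, and bars beside the points give mean ± SD. DFR lies at or below 0.35 CPM in the leaves labelled gpat4 gpat8 and at or above 105 CPM in WT, while LHCB1.1 lies at or above 2634 CPM and at or below 44.7 CPM.

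Nuclear genes for photosynthesis moved the other way and without exception in this list. All 29 tested were called higher in the leaves labelled gpat4 gpat8, with log2 fold changes from 1.46 (PSBR) to 6.32 (LHCB1.1) and a median of 2.83, where 11.8% of all genes were called higher. Their summed level was 56053 to 62302 CPM in the leaves labelled gpat4 gpat8, 7955 to 9643 CPM in WT and 10367 to 13637 CPM in the leaves labelled rbohE. The differences were widest among genes of the light-harvesting antenna of photosystem II. LHCB1.1 (AT1G29920), which encodes a protein of that antenna, was at 2634, 3282 and 2736 CPM against 30.8, 32.8 and 44.7 CPM (log2 fold change 6.32 ± 0.41, edgeR adjusted p 5.33e-19). LHCB2.2 and LHCB2.1, 2 other genes of that antenna, had log2 fold changes of 5.46 ± 0.39 and 4.81 ± 0.30. These 3 genes share sequence with near-identical copies, so the split of their reads is uncertain.

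LHCB3 (4.46), LHCB1.3 (3.76) and LHCB4.2 (3.54) followed. The 4 photosystem I antenna genes LHCA1 to LHCA4 lay between 2.42 and 2.92. RBCS1A, the small subunit of the carbon-fixing enzyme Rubisco, was at 4144, 4564 and 4108 CPM against 713, 692 and 791 CPM (2.54 ± 0.16, edgeR adjusted p 5.23e-20). RBCS2B (3.4) and RBCS3B (2.87) were also called (LHCB1.3 and RBCS3B, too, have near-identical copies), as was RCA (1.80), which encodes Rubisco activase. NPQ4 (1.76), the PsbS protein that dissipates excess light as heat, rose, while ELIP1 (AT3G22840), an early light-induced protein of the stressed thylakoid, fell from 27.6 ± 1.94 to 2.24 ± 0.686 CPM (SD, n = 3; log2 fold change -3.64, edgeR adjusted p 3.18e-11). Against rbohE 4h all 29 were called higher too (9.15% of all genes were), with a median of 2.28, and 5 were called higher in the leaves labelled rbohE against WT (1.57% of all genes were), with a median of 0.52.

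For photosynthesis genes the I-box, GATAAG, a motif long noted before light-regulated genes, was searched in the same windows. It was found in 9 of 29 promoters (31%), in 12.4% of all 23280, in 16.6% of those of genes called higher and in 11% of those of genes called lower. Other lists held it at similar shares, with 33.3% of WRKY, 31.2% of sugar starvation and 28.6% of cell cycle promoters. LHCB2.1 (chr2:1824481-1824730, minus strand) and LHCB4.2 (chr3:2717307-2717556, plus strand) are shown as members that hold it.
LHCB2.1: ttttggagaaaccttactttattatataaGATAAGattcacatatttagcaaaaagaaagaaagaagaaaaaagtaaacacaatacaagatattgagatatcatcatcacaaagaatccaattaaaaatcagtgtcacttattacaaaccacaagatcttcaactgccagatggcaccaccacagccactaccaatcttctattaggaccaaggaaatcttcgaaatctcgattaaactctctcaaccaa
LHCB4.2: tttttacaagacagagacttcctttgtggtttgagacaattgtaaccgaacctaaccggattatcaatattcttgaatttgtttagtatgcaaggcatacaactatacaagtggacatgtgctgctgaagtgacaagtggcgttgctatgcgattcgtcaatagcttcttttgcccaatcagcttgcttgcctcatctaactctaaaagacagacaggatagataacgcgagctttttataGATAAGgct

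The circadian clock list was moved in part. Of 21 genes tested, 6 were called higher (11.8% of all genes were) and 1 lower, with a median log2 fold change of 0.49. CCA1, a MYB factor of the morning, stood at 18.7, 18.6 and 20.0 CPM against 5.83, 7.23 and 6.21 CPM (1.57 ± 0.24, edgeR adjusted p 1.88e-07). The related RVE1 (2.36), RVE8 (1.95) and RVE4 (1.37), the coactivator LNK2 (1.42) and CHE (1.99) were the other genes called higher, and ELF4 of the evening complex was lower (-1.53). LHY (0.67), TOC1 (-0.28) and GI (-0.41) were not called. None of the 21 was called between rbohE 4h and WT 4h, where 2.19% of all genes were. CCA1 and LHY were at 6.42 and 3.25 CPM in WT at 4h, whereas their highest WT means in the time course were 158 CPM at 1h and 132 CPM at 12h.

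**Figure D3:**
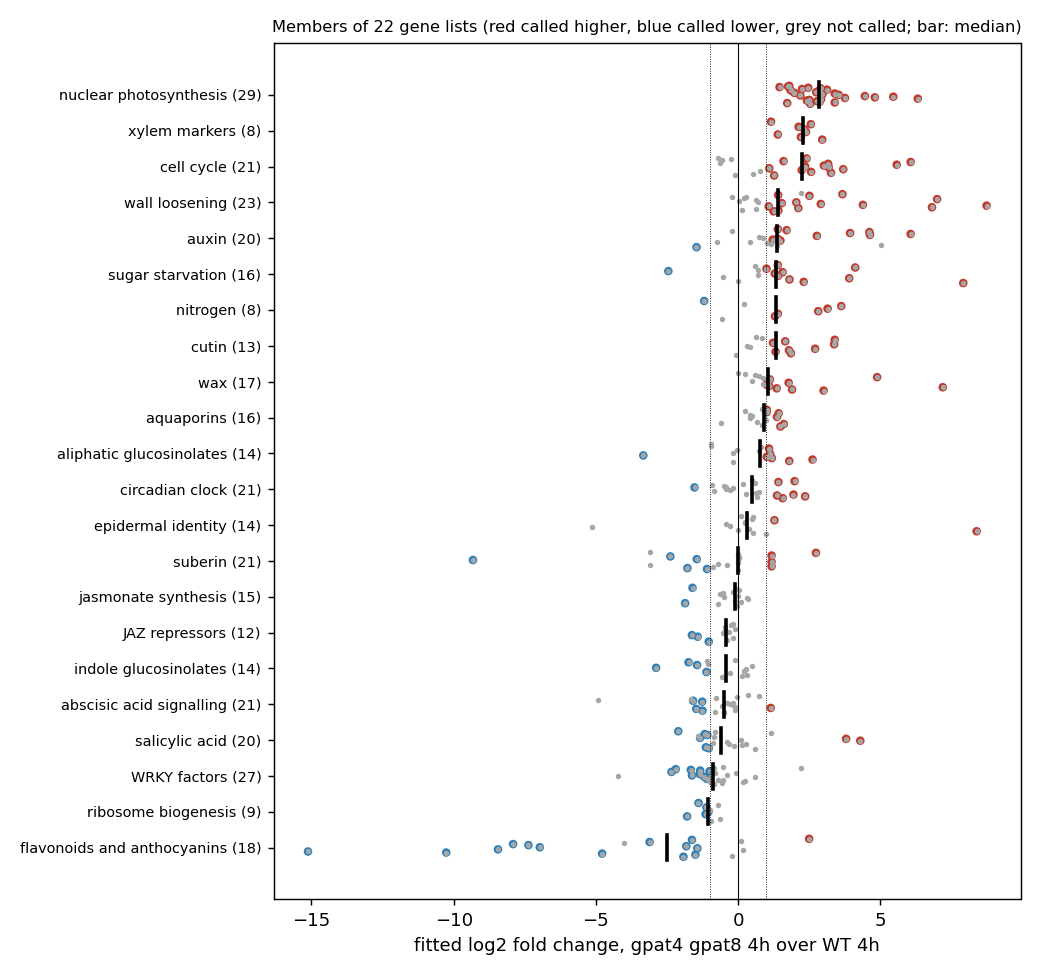
Log2 fold change between the leaves labelled gpat4 gpat8 and WT at 4h for each tested member of 22 gene lists, with 1 point per gene and the list median marked. Photosynthesis and xylem members all lie above 1, and most flavonoid and anthocyanin members lie below -1.

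Genes that plants turn on when sugar runs low were higher. Of 16 sugar starvation genes tested, 10 were called higher (11.8% of all genes were) and 1 lower, with a median log2 fold change of 1.35. ASN1 (AT3G47340), the dark- and starvation-induced asparagine synthetase, was at 39.1, 66.1 and 76.0 CPM against 0.215, 0.338 and 0.187 CPM in WT (7.92 ± 0.83, edgeR adjusted p 1.04e-11). SEN1 (AT4G35770), a dark-inducible gene, was at 99.5, 126 and 136 CPM against 7.34, 8.66 and 7.99 CPM (3.91 ± 0.44), and BXL1, a beta-xylosidase, at 219 ± 38.9 CPM against 12.6 ± 4.42 CPM (SD, n = 3; 4.12 ± 0.65). ASN1 overlaps a gene on the other strand.

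The trehalose-phosphate synthase-like genes TPS8 (1.41), TPS10 (1.29) and TPS11 (1.57) and the kinase subunit gene AKINBETA1 (1.40) were also called, and DIN10 was at 2.31. The aminotransferase gene BCAT-2 fell (-2.45). DIN11 (AT3G49620), a dark-inducible dioxygenase outside the list, stood at 55.9, 39.0 and 112 CPM against 0.33, 0 and 0.25 CPM, a call that DESeq2 did not make. Between rbohE 4h and WT 4h, ASN1 (2.80), SEN1 (1.96) and BXL1 (3.47) were called higher as well, and BXL1 (0.64) was not called between the lines. Starch genes were mixed, with the plastid phosphorylase PHS1 higher (1.39) and the granule-bound starch synthase GBSS1 (-2.14), the debranching enzyme ISA3 (-1.32) and the beta-amylase BAM3 (-1.11) lower.

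Of 8 nitrogen genes tested, 5 were called higher (11.8% of all genes were) and 1 lower, with a median of 1.35. They were the nitrate and nitrite reductase genes NIA2 (1.3) and NIR1 (1.40) and the nitrogen-responsive repressor genes LBD37 (2.82), LBD38 (3.15) and LBD39 (3.63), while the nitrate transporter NRT1.1 fell (-1.19). LBD38 stood at 48.7, 47.8 and 48.5 CPM against 5.54, 4.50 and 6.31 CPM in WT. It was at 24.8 CPM on average in the leaves labelled rbohE, and NIA2, NIR1, LBD37 and LBD38 were called between rbohE 4h and WT 4h but not between the lines.

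Glucosinolates are the mustard oil precursors of this family of plants, and myrosinases release toxic products from them after damage. TGG2 (AT5G25980), a myrosinase, was at 1538, 1859 and 1726 CPM in the leaves labelled gpat4 gpat8 and at 7.83, 8.32 and 15.6 CPM in WT (7.33 ± 0.67, edgeR adjusted p 1.31e-13). The leaves labelled rbohE stood between, at 266, 124 and 104 CPM. Of 14 aliphatic glucosinolate genes tested, 6 were called higher and 1 lower, with a median of 0.78, where 11.8% and 7.39% of all genes were. Without gpat4 gpat8 4h replicate 1 they were 3 and 3, and 3 were also lower with DESeq2, with RLE size factors and without WT 4h replicate 2 or 3. MYB76 (2.62) and MYB29 (1.80), activators of this branch, were called higher and MYB28 (-0.17) was not. MAM3, a chain-elongation enzyme, fell to 12.2, 3.86 and 10.9 CPM from 103, 85.8 and 80.7 CPM (-3.33 ± 0.30, edgeR adjusted p 1.03e-13). Of 14 indole glucosinolate genes, none was called higher and 4 were called lower, among them the activator MYB51 (-1.44) and CYP81F4 (-2.88), which lost its call without WT 4h replicate 2 (-2.01).

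Genes for the cuticle were higher, in both its cutin and its wax branch. Of 13 cutin genes tested, 8 were called higher (11.8% of all genes were) and none lower, with a median log2 fold change of 1.32. HTH, an oxidoreductase thought to act in forming dicarboxylic cutin acids, was at 33.2, 33.9 and 24 CPM against 1.93, 3.22 and 3.56 CPM (3.38 ± 0.30, edgeR adjusted p 3.43e-14). The lipase-like gene LTL1 (3.4 ± 1.04), the long-chain acyl-CoA synthetase gene LACS2 (1.86 ± 0.19) and the extracellular hydrolase gene BDG1 (1.66 ± 0.35) were among the others. The fatty acid omega-hydroxylase genes CYP86A2 (1.32), CYP86A4 (1.79) and CYP86A7 (2.71) act just before the GPAT step, and the acyltransferase gene DCR (1.23) was called too. CYP86A7 lost its call without gpat4 gpat8 4h replicate 1 or without WT 4h replicate 2 or 3.

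Of 17 wax genes tested, 10 were called higher (11.8% of all genes were) and none lower, with a median of 1.04. Without gpat4 gpat8 4h replicate 1 the count higher was 6. CER1 (AT1G02205), which takes part in making wax alkanes, was at 320, 251 and 243 CPM against 42.1, 24.9 and 34.1 CPM in WT (3.01 ± 0.57, edgeR adjusted p 1.33e-05). WSD1, the wax ester synthase, stood at 24.8, 15.0 and 12.1 CPM against 0.777, 0.399 and 0.577 CPM (4.89 ± 0.96). CER4 (AT4G33790), the fatty alcohol-forming reductase, was at least 33.9-fold higher, a call that DESeq2 did not make. The elongase genes CUT1 (1.02), CER60 (1.78) and FDH (1.04), with CER2 (1.90), CER3 (1.36), PAS2 (1.12) and the exporter gene ABCG12 (1.09), made up the 10.

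Against rbohE 4h, 6 of 13 cutin and 6 of 17 wax genes were called higher (9.15% of all genes were). Between rbohE 4h and WT 4h, where 2.19% of all genes were called, none of them was. Of 8 genes of cuticle regulators 1 was called higher and none lower, with a median of 0.48 and a range from -1.79 to 2.55, and DESeq2 called 1 lower. The regulator of epidermal identity ATML1 (AT4G21750), named in the title of the study, was at 71.1, 54.7 and 61.1 CPM against 35.2, 29.7 and 28.8 CPM. It missed the 2-fold minimum with a log2 difference of 0.99 ± 0.11 (edgeR adjusted p 8.53e-11), and reached it without gpat4 gpat8 4h replicate 2 or WT 4h replicate 1 (both 1.03). PDF2, its partner, stood at 44.5 ± 4.25 CPM against 30.8 ± 2.67 CPM (SD, n = 3; 0.53 ± 0.11). Of 14 epidermal identity genes, GL2 (1.28) and PDF1 (AT2G42840, at least 5.63-fold) were called higher (11.8% of all genes were), and 1 was with only the groups compared in the fit. The summed level of the list was 469 to 478 CPM against 364 to 405 CPM. Of 17 stomatal lineage genes, SDD1, EPFL9 (AT4G12970, at least 14.1-fold) and ER (1.80) were called higher, and the call of SDD1 was lost under 6 alternatives. EPFL9 encodes a peptide that promotes stomata, and ER encodes a receptor kinase.

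Suberin, the lipid and phenolic polymer deposited in wound periderm, showed no common direction, with 4 of 21 genes called higher, 5 lower and a median of -0.00. Of all genes, 11.8% were called higher and 7.39% lower. With only the groups compared in the fit the counts were 2 and 3. The number higher was 0 without WT 4h replicate 3, 1 without gpat4 gpat8 4h replicate 1 and 2 without WT 4h replicate 2, and the number lower was 3 without gpat4 gpat8 4h replicate 2. GPAT5 (-1.78), an acyltransferase of suberin synthesis, and GPAT1 (-1.55) of the same family fell, and the fatty acyl reductase gene FAR1 rose (1.18), a call lost without gpat4 gpat8 4h replicate 1 or without WT 4h replicate 2 or 3. In WT, GPAT5 peaked at 149 CPM at 3D and was at 5.82 ± 2.19 CPM (SD, n = 3) at 4h. Of 24 phenylpropanoid and lignin genes, 3 were called higher and none lower, with a median of 0.39, a share near that of all genes.

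Genes of DNA replication and mitosis, at low levels in these leaves, were higher. Of 21 cell cycle genes tested, 14 were called higher (11.8% of all genes were) and none lower. Their median was 2.24, which becomes 1.60 when members at the floor take their bound. MCM7, a subunit of the replicative helicase, was at 3.35, 2.36 and 2.90 CPM against 0, 0 and 0.172 CPM in WT (5.58 ± 0.61, edgeR adjusted p 2.67e-11). MCM2 was at 2.22, 3.35 and 4.28 CPM against 0.182, 0.353 and 0.218 CPM (3.70 ± 0.50), and MCM3 to MCM6 lay between 1.1 (MCM3) and 3.2 (MCM4). CDC6 (AT2G29680), which loads that helicase, was at least 18.3-fold higher. PCNA1 (3.17), CDKB1;1 (2.57), CDKB2;1 (2.24) and CYCB1;2 (3.27) were called, as was SMR7 (2.41), an inhibitor of cyclin-dependent kinases, whereas CYCB1;1 (0.51), CYCD3;2 (-0.12) and PCNA2 (-0.64) were not. In WT the mean of MCM7 was lowest at 4h and reached 8.90 CPM at 1D. MCM7 and CDC6 each overlap a gene on the other strand. Against rbohE 4h, 12 of the 21 genes were called higher (9.15% of all genes were).

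The E2F site TTTCCCGC, the element of S-phase genes, was found in 3 of 21 promoters of this list (14.3%), in 143 of all 23280 (0.614%), in 1.3% of those of genes called higher and in 0.175% of those of genes called lower. MCM2 (chr1:16969964-16970213, plus strand) and MCM6 (chr5:18010668-18010917, minus strand) are shown as helicase subunit genes that hold it, MCM6 in the reverse orientation.
MCM2: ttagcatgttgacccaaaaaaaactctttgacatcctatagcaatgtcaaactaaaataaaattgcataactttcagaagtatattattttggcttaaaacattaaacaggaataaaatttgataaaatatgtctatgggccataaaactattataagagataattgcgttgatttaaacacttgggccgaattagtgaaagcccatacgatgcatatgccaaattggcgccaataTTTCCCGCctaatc
MCM6: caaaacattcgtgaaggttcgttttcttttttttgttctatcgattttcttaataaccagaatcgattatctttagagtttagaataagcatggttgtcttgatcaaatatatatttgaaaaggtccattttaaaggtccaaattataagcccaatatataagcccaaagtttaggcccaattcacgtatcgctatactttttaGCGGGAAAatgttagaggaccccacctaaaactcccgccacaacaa

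Genes of cell expansion were higher as well. Of 23 wall-loosening genes, 14 were called higher (11.8% of all genes were) and none lower, with a median of 1.42. EXPA11 (AT1G20190), an expansin, was at 6.22, 12.5 and 4.37 CPM against 0.0496, 0 and 0 CPM, at least 61.6-fold higher, and the xyloglucan endotransglucosylase genes XTH4 (4.39), XTH31 (3.67) and XTH7 (2.91) were called. Of 20 auxin genes, 10 were called higher and 1 lower, with a median of 1.37. The response genes SAUR21 (3.94) and IAA29 (2.77) and the transporter genes PIN3 (1.71) and PIN7 (1.40) rose, while TAA1 (-1.46), an enzyme of auxin synthesis, fell. Of 16 aquaporin genes, 6 were called higher, led by PIP1;3 (1.61) and PIP1;1 (1.49), and 3 were without gpat4 gpat8 4h replicate 3 or WT 4h replicate 2. GA3OX1 (3.13), which makes active gibberellin, rose.

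All 8 xylem markers were higher, with a median of 2.27 and a summed level of 95.9 to 112 CPM against 27.8 to 34.6 CPM in WT and 51.7 to 62.1 CPM in the leaves labelled rbohE. XCP1, a protease of dying xylem elements, was at 12.7, 18.7 and 18.16 CPM against 1.12, 2.30 and 2.93 CPM (2.96 ± 0.40, edgeR adjusted p 1.2e-08). The xylem master regulators VND7 (2.56) and VND6 (2.13) and the secondary wall cellulose synthases CESA7 (2.39), CESA8 (2.33) and CESA4 (1.40) were called. In the same direction moved the laccase genes LAC17 (2.06) and LAC4 (1.65), which polymerise lignin. Of 8 phloem markers, 2 were called higher (11.8% of all genes were). The summed level of the phloem markers was 1449 to 1496 CPM against 1788 to 1883 CPM. Of 5 guard cell markers 1, the anion channel SLAC1 (-1.02), was called lower, and their summed level overlapped, at 238 to 302 CPM against 268 to 278 CPM.

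The nucleolar machinery that builds ribosomes was lower. All 9 ribosome biogenesis genes tested had log2 fold changes below 0, from -1.79 to -0.65 with a median of -1.04. Among them, 5 were called lower (7.39% of all genes were). FIB2 (AT4G25630), a fibrillarin of the nucleolus, was at 52.7, 31.4 and 36.5 CPM against 128, 157 and 132 CPM (-1.79 ± 0.21, edgeR adjusted p 4.22e-10). NOP56 (-1.14), APUM24 (-1.39), TOZ (-1.11) and PES (-1.04) were the other 4. In WT the means of FIB2, NOP56 and APUM24 were highest at 4h, and that of FIB2 was 0.632 CPM at 1h. Against rbohE 4h, 2 of the 9 were called lower (5.24% of all genes were).

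Genes of the wound hormone jasmonate differed little in number. Of 15 genes of its synthesis, LOX4 (-1.86) and DAD1 (-1.60) were called lower, and of 12 JAZ repressor genes, JAZ5 (-1.62), JAZ1 (-1.03) and JAZ4 (-1.42) were, while none was called higher. Of all genes, 7.39% were called lower. LOX4 stood at 104, 52.8 and 112 CPM against 361, 342 and 272 CPM. The storage protein genes VSP1 and VSP2, which jasmonate induces, were higher instead. VSP1 was at 111, 97.9 and 148 CPM against 2.38, 2.55 and 2.81 CPM (5.53 ± 1.07, edgeR adjusted p 2.81e-05), and VSP2 at 245 ± 68.4 CPM against 55.8 ± 16.6 CPM (SD, n = 3; 2.13 ± 0.63). The NAC factor gene NAC055 (1.54) was the third of 14 jasmonate factors and outputs called higher, and none was called lower, although RLE size factors and DESeq2 each called 1. JAZ1 lost its call without gpat4 gpat8 4h replicate 2 or WT 4h replicate 1, and JAZ4 with only the groups compared or without gpat4 gpat8 4h replicate 1.

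For abscisic acid, the hormone of water deficit, the early synthesis genes ABA1 (1.40) and ABA2 (1.42) were higher. NCED3 (-1.30), which encodes the rate-limiting cleavage enzyme, and CYP707A1 (-2.03), which starts breakdown, were lower. These were 2 higher and 2 lower of 11 genes tested, where 11.8% and 7.39% of all genes were, and 4 were lower without WT 4h replicate 3. Of 21 genes of its signalling, 4 were called lower and 1 higher, with a median of -0.48. The phosphatase genes HAI1 (-1.26) and HAI2 (-1.58) and the receptor gene PYL6 (-1.47) were lower and the receptor gene PYL7 (1.15) was higher. HAI1 lost its call under 5 alternatives, and PYL7 lost it without WT 4h replicate 2 (0.99). CYP707A1 stood at 70.9, 50.8 and 66.7 CPM against 297, 243 and 230 CPM, with no overlap.

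Genes of pathogen defence were mostly lower where called. Of 27 WRKY factor genes, 9 were called lower (7.39% of all genes were) and none higher, with a median of -0.89, although 1 was called higher with DESeq2 and without gpat4 gpat8 4h replicate 2 or WT 4h replicate 3. WRKY40 was at 67.4, 39.2 and 72.3 CPM against 215, 175 and 158 CPM (-1.62 ± 0.53, edgeR adjusted p 0.00899), and WRKY60 (-1.66), WRKY33 (-1.19), WRKY46 (-1.35) and WRKY54 (-1.33) were among the others. Of 20 salicylic acid genes, 6 were called lower and 2 higher. The lower ones included the regulator genes SARD1 (-1.08) and CBP60G (-1.17), the transporter EDS5 (-1.03) and the glutaredoxin GRX480 (-2.10). The higher ones were the output genes PR5 (3.80) and PR1. PR1 stood at 0, 0.786 and 8.44 CPM, and 8 alternatives did not call it, among them the replicate block (3.93), leaving out gpat4 gpat8 4h replicate 3 (1.40) and leaving out any 1 of the WT 4h libraries. Against rbohE 4h, 8 WRKY genes were called lower (5.24% of all genes were). Between rbohE 4h and WT 4h, where 2.19% of all genes were called, none of them was.

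The share of genes called differed among several other stress lists. Of 14 ERF factors, ERF1 (-1.66) and ERF13 (-1.50) were called lower and none was called higher, where 7.39% of all genes were called lower and 11.8% higher. The number lower was 4 with RLE size factors or the replicate block, 5 without gpat4 gpat8 4h replicate 3 and 1 without gpat4 gpat8 4h replicate 2, and ERF13 lost its call under 5 alternatives. Of 8 ZAT and AZF zinc finger genes, ZAT6, ZAT11 and AZF3 were called lower. Of 18 ethylene genes, the oxidase gene ACO4 (-1.3) and the F-box gene EBF1 (-1.12) were lower and 1 gene was higher, which was lost with only the groups compared in the fit. Of 19 heat shock genes 3 were lower, and 1 was without gpat4 gpat8 4h replicate 1. HSFA7A and HSP17.6A each lost the call under 4 alternatives, HSP17.6A with the replicate block (-0.98) among them. Of 9 senescence genes the chlorophyll breakdown regulator NYE2 (-3.33) and SAG13 (-1.92) were lower. Of 12 phosphate genes 3 were lower, among them MGD3 (-4.54), which makes galactolipids when phosphate is short. Of 8 antioxidant enzyme genes, CAT2 (2.23), the catalase of photorespiring leaves, and the superoxide dismutase gene FSD1 (1.59) were higher. None was called in the main edgeR fit among 5 RBOH oxidase genes, 9 iron genes and 9 regeneration genes. The adjusted p alone fell under 0.05 for 1, 3 and 4 genes of these lists. DESeq2 called 1 RBOH gene higher, as did edgeR without gpat4 gpat8 4h replicate 2 or 3.

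The 2h libraries give a view of the same contrast in other leaves of the same lines. There, 1607 genes (6.85%) were called, against 485 (2.07%) at 2D and 742 (3.16%) at 3D. By the adjusted p alone 30.1% of all genes passed at 2h and 5.22% at 2D. Of the 2770 genes higher at 4h, 778 (28.1% of them and 72.4% of those higher at 2h) were also higher at 2h, 85 (3.07% and 20.1%) at 2D and 315 (11.4% and 53.2%) at 3D. Of the 1735 lower genes, 320 (18.4% and 60.2%) were also lower at 2h, 13 (0.749% and 21.0%) at 2D and 62 (3.57% and 41.3%) at 3D. A total of 1828 higher genes (66.0%) and 1386 lower genes (79.9%) were called at none of 2h, 2D and 3D in that direction. The share called at 2D moved with single libraries, from 264 genes without gpat4 gpat8 2D replicate 3 to 510 without gpat4 gpat8 2D replicate 1.

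Many anthocyanin and photosynthesis genes were called at 2h, and fewer genes of these lists were called at 2D and 3D. At 2h, 11 of the 18 flavonoid and anthocyanin genes were called lower (2.27% of all genes were), 18 of the 29 photosynthesis genes higher (4.58% of all genes were) with a median of 1.14, and 10 of the 21 cell cycle genes higher. At 2D the counts were 1 (0.264% of all genes were lower), 0 (1.80% were higher) and 0, and at 3D they were 3 (0.639%), 3 (2.52%) and 0. DFR was at 0.925 ± 0.776 CPM against 74.4 ± 36.1 CPM in WT at 2h, and at 428 ± 58.7 CPM against 487 ± 108 CPM at 2D and 877 ± 16.0 CPM against 773 ± 57.0 CPM at 3D (SD, n = 3). The last 2 differences were not called. LHCB1.1 was at 1507 ± 731 CPM against 296 ± 63.9 CPM at 2h and at 46.6 ± 8.85 CPM against 60.5 ± 22.5 CPM at 2D, and at 3D it was called higher, at 37.7 ± 12.8 CPM against 9.57 ± 1.18 CPM (1.98). ASN1 was at 42.0 ± 27.6 CPM against 0.855 ± 0.447 CPM at 2h, and its differences at 2D (-0.31) and 3D (2.08) were not called.

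The line was also collected at 0h, 12h and 1D. The descriptions of those libraries carry an M that the others lack and that the labels do not explain, so their levels are given without a test. LHCB1.1 was high at all 3 of these times, at 3764 ± 418 CPM against 21.9 ± 7.31 CPM in WT at 0h, 2372 ± 341 CPM against 27.2 ± 2.22 CPM at 12h and 417 ± 117 CPM against 25.4 ± 6.88 CPM at 1D (SD, n = 3). ASN1 was at 104 ± 59.2 CPM against 0.242 ± 0.215 CPM at 0h, and its means were 8.67 against 0.157 CPM at 12h and 11.1 against 0.127 CPM at 1D. DFR was lower at these times without being near 0 at all of them, at 82.1 ± 107 CPM against 469 ± 162 CPM at 0h, 149 ± 46.4 CPM against 503 ± 69.4 CPM at 12h and 47.1 ± 6.98 CPM against 215 ± 54.9 CPM at 1D. The groups did not overlap for these 3 genes at any of the 3 times. At 4h the same held for 61.7% of all genes tested, and the share at 0h, 12h and 1D was not computed. The lack of overlap is therefore only a description of these levels. At 0h CER1 averaged 12.1 CPM against 9.69 CPM and MCM7 averaged 1.69 CPM against 3.67 CPM, and for both the groups overlapped.

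**Figure D4:**
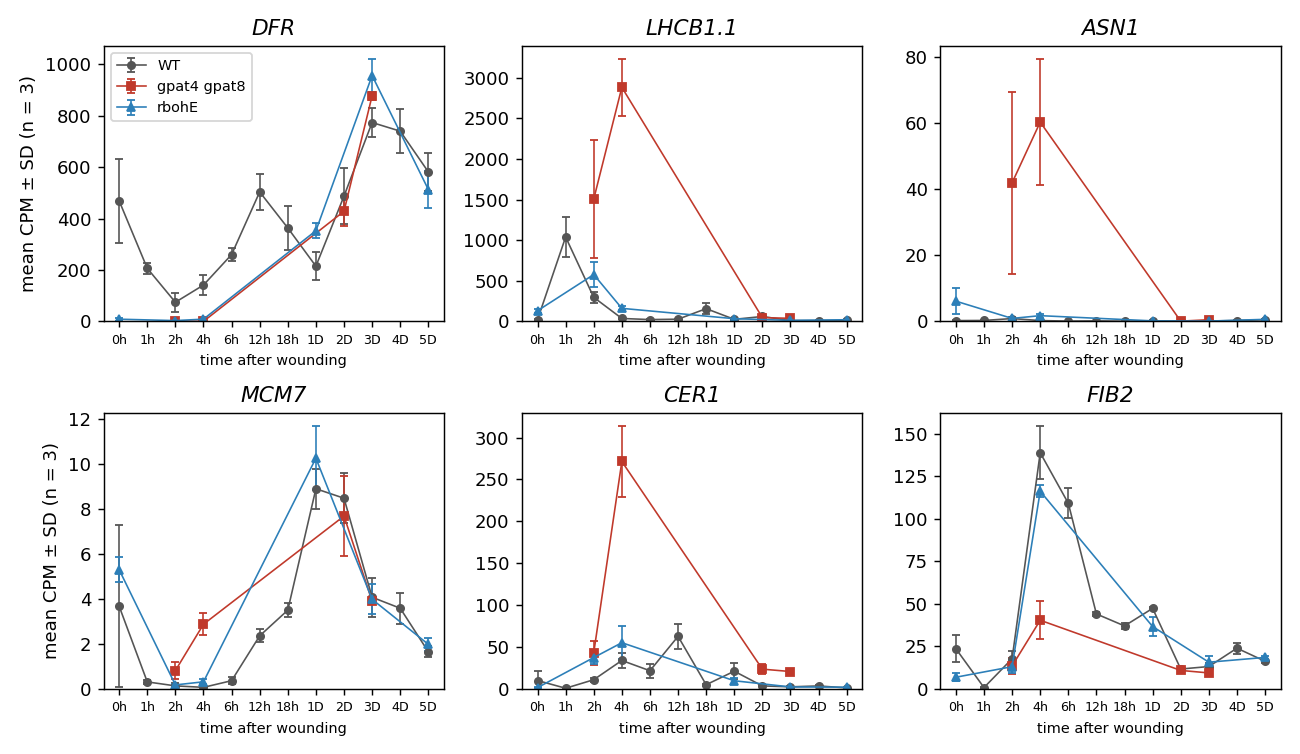
Level of DFR, LHCB1.1, ASN1, MCM7, CER1 and FIB2 over time in WT, gpat4 gpat8 and rbohE, in CPM on linear axes. Points and bars give mean ± SD over 3 libraries, with times set at equal distances. The leaves labelled gpat4 gpat8 are shown at 2h, 4h, 2D and 3D. DFR is near 0 in the leaves labelled gpat4 gpat8 at 2h and 4h and meets WT at 2D and 3D, whereas CER1 lies above WT at 2h, 4h, 2D and 3D.

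The difference between the lines changed from 2h to 4h for 2081 genes (8.86%) in the test of that change itself. Of the photosynthesis list, 27 of 29 gained in the leaves labelled gpat4 gpat8 relative to WT (5.14% of all genes did), with a median gain of 1.73. LHCB1.1 stood at 296 CPM at 2h and 36.1 CPM at 4h in WT, and at 1507 CPM and 2884 CPM in the leaves labelled gpat4 gpat8. Of the cutin and wax lists, 6 of 13 and 6 of 17 gained, and at 2h 1 of 13 and 2 of 17 had been called higher. CER2, for example, differed by -0.09 at 2h and by 1.90 at 4h. For PAP2 the difference dropped by 4.98 on the log2 scale, and for MYBL2 it rose by 2.27. None of the 9 ribosome biogenesis genes was called at 2h, and the change was called lower for FIB2 (-1.39) and APUM24 (-1.09), where 3.72% of all genes were.

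Set against every time of the WT course, the leaves labelled gpat4 gpat8 at 4h differed by the fewest genes from WT at 6h (4278 genes called) and WT at 4h (4505), then from WT at 12h (5174), 18h (5203), 1D (5331) and 0h (5638), and most from WT at 1h (8460). WT at 4h differed from WT at 6h by 1330 genes. Of the genes called higher, 1298 (46.9%) were above the mean of every WT time, and of those called lower 768 (44.3%) were below every WT mean. Of all genes tested, 12.4% and 10.0% lay beyond the WT means in this way. A call already asks for a 2-fold difference from WT at 4h, which is among these means. The larger shares of called genes are thus partly built in. DFR, with means from 74.4 to 773 CPM in WT, was below all of them, and so were LDOX, PAP2 and TT8. LHCB1.1 (9.01 to 1040 CPM in WT), TGG2 (0.208 to 118 CPM), ASN1 (0.0591 to 0.855 CPM) and CER1 (0.476 to 62.5 CPM) were above all of them. CCA1 (3.36 to 158 CPM), MCM7 (0.0572 to 8.90 CPM) and XCP1 (1.14 to 18.7 CPM) lay within.

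**Figure D5:**
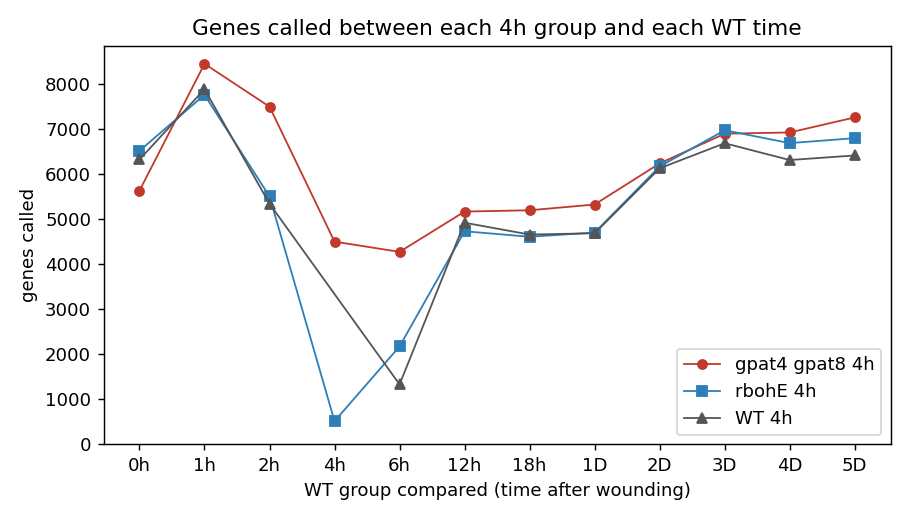
Number of genes called for the leaves labelled gpat4 gpat8, WT and rbohE at 4h against each WT time. The count for gpat4 gpat8 at 4h is 4278 against WT 6h and 4505 against WT 4h, while WT 4h differs from WT 6h by 1330 genes and rbohE 4h differs from WT 4h by 513.

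A small set of genes separated the line from WT at 2h, 4h, 2D and 3D alike, with 20 higher and 4 lower at all of these times. CER1 and TGG2 were among the higher ones, together with GRP9 (AT2G05440, at least 22.9-fold at 4h), AT1G64795 (at least 20.5-fold) and AT1G75945. The 4 lower ones were MRD1, its neighbours AT1G07887 and HEI10, and AT3G29633. MRD1 stood at 0.2, 0.14 and 0.163 CPM against 21.3, 11.4 and 14.4 CPM in WT (-6.56 ± 0.86), and HEI10, a gene of meiotic crossover, at 2.65, 2.93 and 2.94 CPM against 20.1, 21.8 and 22.7 CPM (-2.92 ± 0.22, edgeR adjusted p 8.08e-17). MRD1, AT1G07887 and HEI10 overlap on the chromosome and are counted as 1 region here. The leaves labelled rbohE also had low levels in this region, with HEI10 at 3.1, 2.32 and 2.85 CPM and MRD1 at 0, 0.157 and 0.468 CPM. They also had the high levels of AT1G75945, at 11.6, 11.8 and 10.7 CPM against 0.413, 0.691 and 0.187 CPM in WT, and of AT1G64795. None of these 5 genes was called between the leaves labelled gpat4 gpat8 and those labelled rbohE at 4h, with log2 differences from -0.26 to 0.05.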

How the data were processed

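The deposited values were whole-number estimated counts per gene from StringTie, per the file headers and the submitters' processing notes, which also name Trimmomatic 0.39, HISAT2 2.2.1, StringTie 1.3.4, edgeR 3.19 and TAIR10. The authors' libraries were made with a stranded mRNA kit, per the labels' protocols. Whether strand was used in counting is not given in the sources used here. The deposited estimated counts fell in steps of 2.63, so 3 fragments (7.89 counts) in each library served as the floor for fold bounds. An exact 0 can be a failed estimate: 69 genes tested (0.294%) had at most the floor in 1 replicate and at least 100 counts in another, in the leaves labelled gpat4 gpat8 or WT at 4h, among them PR1, ABCG2, AT1G66820, AT4G16260 and AT5G42092. CER1 and WSD1 did so in WT at 0h. MYC2, with no count in WT at 4h, was not interpreted for this reason.

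Counts of 75 libraries in 25 groups were scaled by TMM, filtered (minimum count 10, minimum total 15) and fitted in 1 edgeR 4.0.16 quasi-likelihood model in R 4.3.3, with Benjamini-Hochberg adjustment over 23475 genes and log2 fold changes from a prior count of 0.125. Standard errors came from the fold change and its F statistic. CPM values used TMM library sizes. The fit was also run on simulated counts, drawn with its own estimate of spread and with few changed genes. That run could not test the scaling or the real spread between replicates, and its outcome is not used here. Gene names and promoters came from the RefSeq annotation of TAIR10.1, which matched 32548 of 32833 deposited IDs. Copies were genes whose transcripts aligned at 90% identity over 50% of their length. Replicate numbers did not pair the samples (correlations of deviations 0.07, -0.00 and -0.09).

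The members and the gene lists were chosen with earlier results of these data known, and 7 promoter motifs were searched. Genes named by rule were GPAT4, GPAT8 and the 5 genes on either side, the 12 largest called increases and decreases without replicate overlap and with a mean of at least 50 counts, up to 3 called members in each direction of each list, ATML1, PDF2, CCA1, LHY, TOC1 and GI, the 5 strongest in each direction among genes called at all 4 times, and the 5 largest and smallest changes from 2h to 4h and against rbohE 4h. Others, such as TT4, LACS2, RBCS1A, WRKY40, XTH31 and the list members not called, were chosen after their values were seen. Alternatives were RLE size factors, no filter, counts divided by the spacing, a replicate block, only the groups compared, DESeq2 1.42.0, no fold minimum and leaving out each library.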

Additional observations from a re-analysis of the deposited data

Results flagged for a closer look

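The size of the difference between the leaves labelled gpat4 gpat8 and WT changed from 2h to 4h for 2081 genes, in the test of that change itself. These were 8.86% of all genes, with 5.14% called higher and 3.72% lower. In the nuclear photosynthesis list, the change was called for 27 of 29 genes, all higher. It was called lower for 8 of 20 salicylic acid genes. Of 18 flavonoid and anthocyanin genes, 7 were called lower and 1 higher. The circadian clock list held 7 of 21 and the wall loosening list 7 of 23. It was called for 6 of 13 cutin and 6 of 17 wax genes. For abscisic acid synthesis and catabolism the number was 5 of 11, and for auxin 5 of 20. It was called for 4 genes each in the lists of WRKY factors (27 tested), indole glucosinolates (14), aliphatic glucosinolates (14), gibberellin and brassinosteroid (11) and cell cycle (21). There were 3 such genes each among glutathione transferases (25), starch turnover (9) and sulfur (9). It was called for 2 genes each in the lists of suberin (21), stomatal lineage (17), jasmonate synthesis (15), antioxidant enzymes (8) and sugar starvation (16). Senescence (9), heat shock (19), ribosome biogenesis (9), cytokinin (14), phosphate (12) and nitrogen (8) also held 2 each. It was called for 1 gene each in the lists of GPAT family (10), jasmonate factors and outputs (14), ERF factors (14) and abscisic acid signalling (21). Damage perception (15), phenylpropanoids and lignin (24), light and shade (9), aquaporins (16), iron (9) and trichome regulators (5) also held 1 each. Several of these lists, such as phenylpropanoids and lignin, abscisic acid signalling and suberin, were near or under the share of all genes.

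Among genes named by rule, the log2 difference at 4h minus that at 2h was above 0 for ANTR2 (1.15), FDM2 (1.45), AT1G11070 (7.99), AT1G62510 (4.28), EXPA11 (7.66), AGP31 (6.25), UMAMIT33 (7.68), HEI10 (1.65), AT3G01345 (7.23) and AT4G16260 (6.49). It was below 0 for FRO1 (-2.23), PAP2 (-4.98), TT8 (-2.86), TT19 (-2.34), DFR (-3.96), UF3GT (-3.48), LDOX (-9.62), AT5G08920 (-11.73), NUDT24 (-10.16), AT1G29090 (-5.72) and AT5G42092 (-10.49). Where a group stood at or near 0, as for LDOX, NUDT24, EXPA11 and AT1G11070, this value depends on the prior count and is no bound. Replicates split between the floor or less and at least 100 counts for AT5G08920 in both 2h groups. They split likewise for AT5G42092 in WT at 4h and for AT4G16260 in the leaves labelled gpat4 gpat8 at 4h. The values of these genes can therefore reflect failed estimates. Both times were compared in different libraries, and the cause of the changes was not tested.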

How the results depend on the processing

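The 4505 genes called at 4h became 4576 with RLE size factors, 4475 without a filter, 4390 with counts divided by the spacing, 4231 with only the groups compared, 4631 with DESeq2 and 4076 to 4632 with 1 library left out. With the replicate block they were 4510, although the numbers do not pair the samples. The balance moved with the scaling, from 61.5% of called genes higher to 56.4% with RLE size factors and 56.1% with DESeq2. Higher and lower were then 2582 and 1994 with RLE size factors and 2600 and 2031 with DESeq2. The median log2 fold change over all genes was -0.07 in both settings. Of 204 named genes, 155 kept direction and side of the threshold in all settings. Direction reversed for AT1G66820 without gpat4 gpat8 4h replicate 2 (-9.42, with 10.62 as the highest with 1 library left out) and for MYB9 without gpat4 gpat8 4h replicate 1 (-0.27, with 6.13 as the highest). Of 949 list counts, 150 moved by over 1.5 times. With only the groups compared, the 2D count was 266 and that shared between 4h and 2D was 60; the cause was not tested. Low counts limit genes near the floor.

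Without a fold minimum more genes pass by construction, with 12302 at 4h, 10747 against rbohE 4h, 2181 between rbohE 4h and WT 4h, 6438 for the change from 2h to 4h, 7069 at 2h, 1225 at 2D and 3026 at 3D. Those shared with 4h were then 4654 at 2h, 372 at 2D and 1613 at 3D, with 57 higher and 44 lower at all 4 times. Against WT at 0h, 1h, 2h, 6h, 12h, 18h, 1D, 2D, 3D, 4D and 5D they were 13756, 16126, 15447, 11539, 12748, 13152, 12988, 14343, 15025, 15020 and 15309.

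With 1 library left out, counts ran from 2876 to 3601 against rbohE 4h, from 316 (without WT 4h replicate 2) to 507 between rbohE 4h and WT 4h, from 1776 to 2437 for the change from 2h to 4h, from 1159 to 1749 at 2h, from 264 to 510 at 2D and from 642 to 711 at 3D. The 2D count was 264 without gpat4 gpat8 2D replicate 3 and 268, 300 and 298 without WT 2D replicate 1, 2 and 3. Shared with 4h were 719 (without gpat4 gpat8 2h replicate 2) to 1191 at 2h, 58 (without WT 2D replicate 3; 61 without gpat4 gpat8 2D replicate 3) to 100 at 2D and 304 to 375 at 3D. At all 4 times they were 11 to 21 higher (11, 12 and 13 without WT 2D replicate 3, WT 2D replicate 2 and gpat4 gpat8 2D replicate 3) and 3 to 5 lower. Against the WT times the ranges were 5396 to 5558 (0h), 8036 to 8191 (1h), 6919 to 7467 (2h), 3998 to 4319 (6h), 4922 to 5058 (12h), 5003 to 5061 (18h), 5166 to 5197 (1D), 5945 to 6064 (2D), 6560 to 6746 (3D), 6671 to 6821 (4D) and 7023 to 7178 (5D).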
